A study of Mus musculus with 45 samples.

Results

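Chromosome 3 was examined as 1 region across 45 primary mammary tumors from female mice of 8 genetically engineered models, with the tumors that lack p53 described in most detail. Its members were the array probes placed on chromosome 3 of the mouse genome build mm8, which came to 2168 probes of 42232 on the autosomes and chromosome X. They ran from position 3445973 to position 159870361 and carried 1069 gene names. Each tumor was hybridized once to an oligonucleotide array for comparative genomic hybridization, in which tumor DNA and pooled normal DNA carry different dyes and the ratio of the dyes at a probe follows the ratio of DNA copies.

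The p53-/- group comprised 6 tumors labelled p53fl/fl ;MMTV-cre transplant, in which the Cre recombinase that removes the floxed Trp53 alleles is driven by the mammary tumor virus (MMTV) promoter and the tumor grew from a transplant. A label of this kind does not say whether several tumors came from 1 donor line, so p-values measure the spread between these arrays. The other 39 tumors came from 7 models. BRCA1fl/fl;p53+/-;MMTV-cre mice (BRCA1-/-;p53+/-, n = 5) carry the floxed Brca1 gene with the same Cre and are heterozygous for p53. C3(1)/SV40 T/t-antigens mice (C3(1)-Tag, n = 5) carry the viral antigens under a prostatein gene promoter. MMTV-c-Myc (MMTV-Myc, n = 5), MMTV-Her2/neu (n = 5), MMTV-H-Ras (MMTV-HRas, n = 5), MMTV-PyMT (n = 9) and MMTV-Wnt1 (n = 5) mice express the named oncogene from the MMTV promoter. No age was used. All tumors were set against pooled normal DNA, named as spleen in one label and as normal mammary gland in another. The paper gives the control as spleen DNA of the background strain, so the reference may have differed between models.

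Copy number gain or loss of a whole chromosome arises when a dividing cell distributes its chromosomes unequally, whereas a change that begins and ends inside a chromosome needs DNA breaks that are joined elsewhere. A breakpoint is the position where the copy number steps from one level to another. The p53 protein arrests or kills cells with broken DNA, and tumors without it are known for rearranged chromosomes. Mouse chromosomes are telocentric, so chromosome 3 has 1 long arm and its lowest positions lie next to the centromere.

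The labels and the deposited intervals disagreed on which dye held the tumor DNA. The labels put tumor DNA in Cy5, but 740 of 755 deposited intervals, including 40 of 40 on chromosome 3, had the sign of Cy3 over Cy5. Every ratio below is therefore log2 of Cy3 over Cy5, which opposes the labels, and each gain would be a loss with the dyes as labelled. The median of all autosomal probes was subtracted from each array, so that 0 is the typical autosomal level of that tumor. A gained or lost segment is a run of at least 5 probes with a mean of 0.2 or more, or of -0.2 or less.

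Some arrays stood apart before any comparison was made. Over 1 Mb bins of the genome, C3TAg_5RPT correlated with H2N53 at r = 0.960 and C3TAg_7RPT with H2N61 at r = 0.928, although these pairs were labelled as different models. With Wnt_4635 these made 5 arrays in doubt, and results that rest on them are also given without them. Among the p53-/- arrays, P53_2979 and P53_5809 had a probe noise (SD) of 0.448 and 0.475, against 0.197 to 0.268 in the other 4, and correlated with each other at r = 0.725. They correlated with H2N53 at r = 0.657 and 0.659, and with the other p53-/- tumors at r = -0.082 to 0.187. Whether these 2 arrays, labelled as p53-/-, hold p53-/- tumors could not be settled. They were kept in their labelled group, and the main comparisons of the group are also given without them. The p53-/- arrays lay on 2 slides that held no other model and were scanned in a session with 16 tumors of other models, so values within that session are given as well. The 2 probes in Trp53, on chromosome 11, ranged from -0.639 to 0.576 in the p53-/- tumors and from -0.666 to 0.71 in the others, and so did not separate the groups. These probes were not shown to lie within the floxed part of the gene.

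Chromosome 3 lay on either side of 0 in the p53-/- tumors. Their mean log2 ratio over the chromosome was 0.444 in P53_2979, 0.399 in P53_5809, 0.191 in P53_5851, 0.038 in P53_5817, -0.103 in P53_8546 and -0.116 in P53_1573. Thus 2 tumors were high, 1 was moderately high, 1 was near 0 and 2 were below 0. Chromosome 3 had the highest mean of the 19 autosomes in P53_2979, the second highest in P53_5851 and the third highest in P53_5809, and ranked 11 in each of the other 3. The group mean was 0.142 ± 0.243 (SD, n = 6), against 0.068 ± 0.133 (SD, n = 39) in the other tumors, a difference of 0.074 in log2 ratio that did not exceed the spread between tumors (two-sided exact permutation test, p = 0.266). From the median over the probes of a tumor it was 0.016 (exact permutation p = 0.815), and within the shared scan session 0.067 (exact permutation p = 0.354). It was -0.066 without P53_2979 and P53_5809 (exact permutation p = 0.330), so these 2 tumors set its direction.

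**Figure D1:**
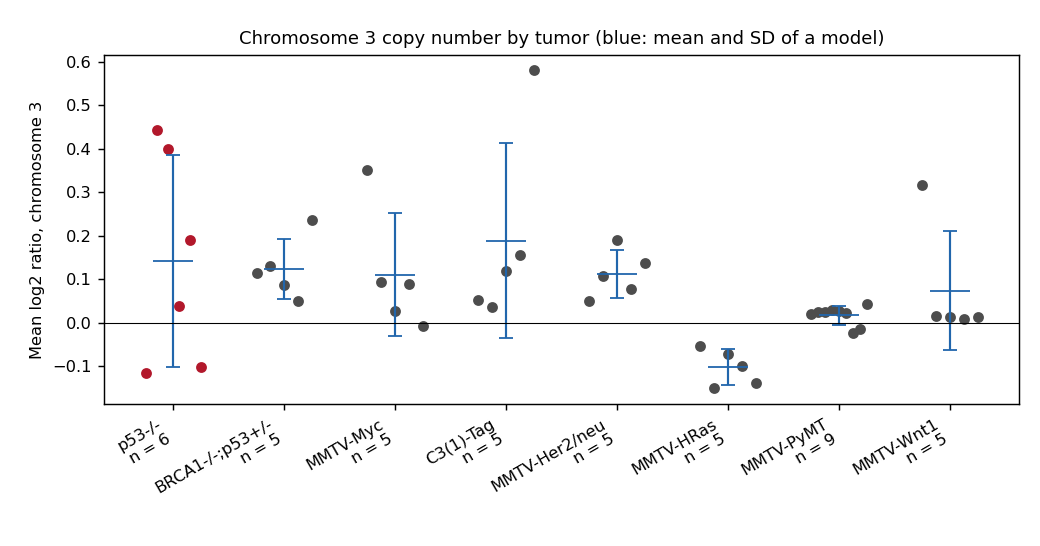
Mean log2 ratio of the chromosome 3 probes (y axis) in each tumor, by model (x axis); each point is 1 tumor, and the blue bar and whiskers are the mean and SD of the model. The p53-/- tumors, in red, spread from -0.116 to 0.444, and all 5 MMTV-HRas tumors lie below 0.

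The other models differed in how often a single tumor stood out. The BRCA1-/-;p53+/- tumors lay between 0.050 and 0.236, with a mean of 0.123 ± 0.070 (SD, n = 5). The MMTV-Myc tumors lay between -0.009 and 0.352, the C3(1)-Tag tumors between 0.036 and 0.580 and the MMTV-Wnt1 tumors between 0.008 and 0.318, in each case with 1 tumor far above the rest. The MMTV-Her2/neu tumors were closer together, from 0.049 to 0.190. The 9 MMTV-PyMT tumors stayed near 0, from -0.024 to 0.042, with a mean of 0.017 ± 0.022 (SD, n = 9).

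None of the 7 models passed a test of its mean log2 ratio against the p53-/- group. The differences ran from -0.046 against C3(1)-Tag to 0.245 against MMTV-HRas, and the adjusted p over the 7 exact permutation tests was 0.470 to 0.857. When each of the 8 models was set against all other tumors, MMTV-HRas was the 1 model that passed. Its mean was -0.103 ± 0.042 (SD, n = 5), against 0.101 in all remaining tumors, a difference of -0.204 in log2 ratio (exact permutation p = 0.00606, adjusted p = 0.0485), and 5 of 5 tumors were below 0. That call was lost without the 5 arrays in doubt (exact permutation test, adjusted p = 0.0842). Of the MMTV-HRas tumors, 4 were scanned in a session with no other model, so that session and model cannot be told apart for them. The other 1 measured -0.054, the lowest of the 5 tumors in its own session, which lay between 0.077 and 0.580 otherwise.

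By segments, chromosome 3 was counted as gained in a tumor when gained segments held at least 10% of its probes. It was gained in 5 of 6 p53-/- tumors (83.3%, exact 95% interval 35.9% to 99.6%) and in 6 of 39 others (15.4%, interval 5.86% to 30.5%; two-sided Fisher's exact test, p = 0.00199). By the same rule, 34 of 108 other autosomes of the p53-/- tumors were gained (31.5%) and 109 of 702 in the others (15.5%), so that the p53-/- tumors had more gained autosomes in general and chromosome 3 was gained in the others at the share of any autosome. Within the shared session the counts were 5 of 6 and 3 of 16 (Fisher's exact p = 0.0109). Without P53_2979 and P53_5809 they were 3 of 4 and 6 of 39 (Fisher's exact p = 0.0242), and without the 5 arrays in doubt 5 of 6 and 4 of 34 (Fisher's exact p = 0.00104). When isolated probes were first set to the median of their neighbors, the counts were 4 of 6 and 4 of 39 (Fisher's exact p = 0.00598). They were 3 of 6 and 3 of 39 when a gained segment needed a mean of at least 0.3, 3 of 6 and 4 of 39 when gained segments had to hold at least 50% of the probes, and 4 of 6 and 8 of 39 by the deposited intervals.

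Gain and loss occurred together in the p53-/- tumors. Gained segments held 100% of the chromosome 3 probes in both P53_2979 and P53_5809, 59.1% in P53_5851, 18.8% in P53_8546, 11.1% in P53_1573 and 1.62% in P53_5817. Lost segments held 64.8% in P53_1573 and 63.0% in P53_8546, and no more than 3.41% in the other 4. So 2 of the 5 tumors counted as gained had lost more of the chromosome than they had gained. Chromosome 3 was lost by the same 10% rule in 2 of 6 p53-/- tumors and in 0 of 39 others, which allows a share of up to 9.03% (exact interval; Fisher's exact p = 0.0152). Of the other autosomes 36.1% were lost in the p53-/- tumors and 10.8% in the others, so 2 of 6 was near the share of any autosome in that group. The mean gained share was 48.4% ± 44.5 (SD, n = 6) against 11.2% ± 29.4 (SD, n = 39), 37.2 points apart by the exact permutation test over tumors (two-sided p = 0.0167). It was 39.1 points within the session (exact permutation p = 0.0155). It was 26.9 points without either P53_2979 or P53_5809 (exact permutation p = 0.0696 in both cases) and 11.4 points without both (exact permutation p = 0.662). By the deposited intervals it was 24.8 points (exact permutation p = 0.249), and with the dyes as labelled 22.1 points (exact permutation p = 0.000565).

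**Figure D2:**
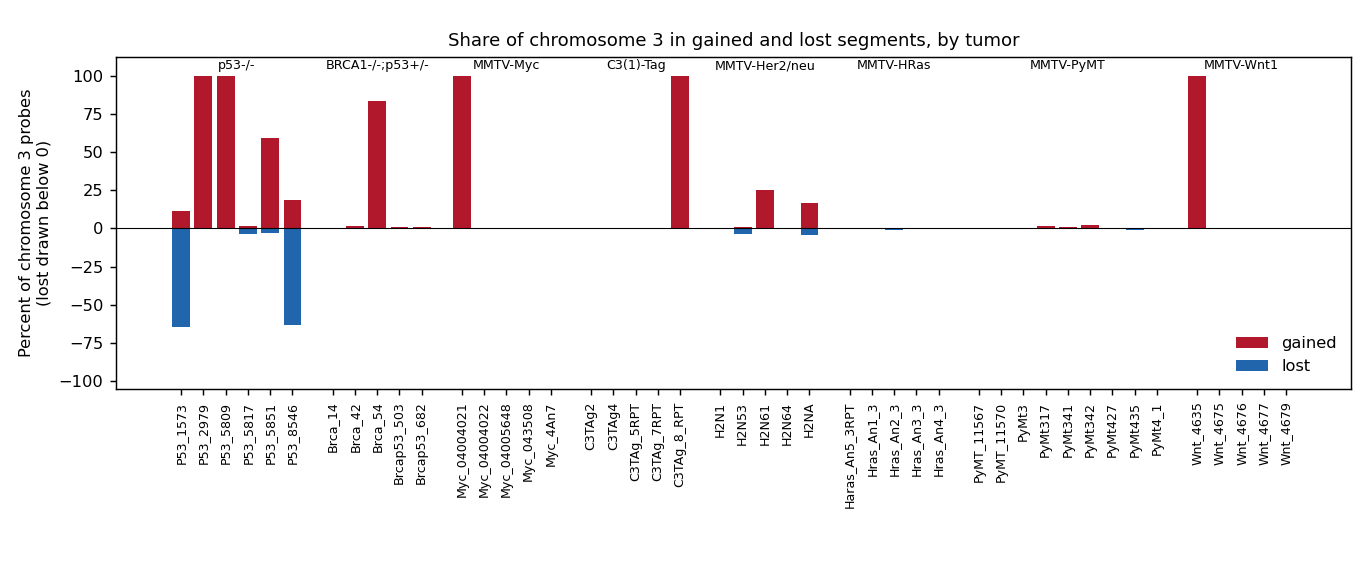
Percent of the chromosome 3 probes in gained segments (red, above 0) and in lost segments (blue, drawn below 0) in each of the 45 tumors, by model. The long blue bars are P53_1573 and P53_8546 (64.8% and 63.0% lost), and P53_2979 and P53_5809 are gained throughout.

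P53_1573 and P53_8546 shared a lost middle between higher ends. With isolated probes set to the median of 5 neighbors, the ends passed the limit for a gain over 17.2% of the probes in P53_8546 and over 0% in P53_1573. In P53_8546 the first 26.1 Mb, up to position 29548248, had a mean of 0.388, and the next 76.4 Mb, from 29859404 to 106242550, a mean of -0.274. In P53_1573 the step lay between positions 29001317 and 29273350, with a mean of 0.157 before it and -0.252 after it. Both tumors stepped up again between positions 117797468 and 118371802, to 0.439 in P53_8546 and to 0.188 in P53_1573. The probes flanking the first step belonged to AK018073 in P53_8546, and the last probe before the second step belonged to AK052487 in both; these are transcripts known by accession alone. Beyond the second step P53_8546 held 2 raised stretches of 5.26 and 5.24 Mb (0.439 and 0.433), parted by 6.13 Mb at 0.082, and 6 probes at its end, up to Gpr177, stood at 0.242. Its steps fell between Ndst3, which modifies heparan sulfate, and AK141945, between Rrh, an opsin of the retinal pigment epithelium, and Nola1, a component of small nucleolar ribonucleoproteins, and next to Cenpe, a kinetochore motor. P53_1573 stayed at 0.158 from position 129959268 to the end, with a step inside Ccdc109b. All these segment means are taken after isolated probes were set to the median of 5 neighbors.

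The deposited interval table gave other levels and calls for these stretches. In that table, which was centred and segmented in another way, the first stretch of P53_1573 stood at 0.43 and of P53_8546 at 0.68, where the autosomal median gave 0.162 and 0.397 over the same probes. That table held gains at both ends of the chromosome in both tumors and no loss of the middle, so that the tumors with a lost chromosome 3 numbered 0 instead of 2. Centring on the density peak of the autosomal probes left 1 lost tumor, and centring on the autosomal probes outside chromosome 3 left 2. The parts of the centring and of the calling method in these counts were not tested apart. The step between the ends and the middle does not depend on the zero level. The profiles of both tumors correlated at r = 0.878 over the 128 bins of chromosome 3 and at r = 0.580 outside it. Both arrays lay on the same slide, and the part of the slide in this likeness was not tested.

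**Figure D3:**
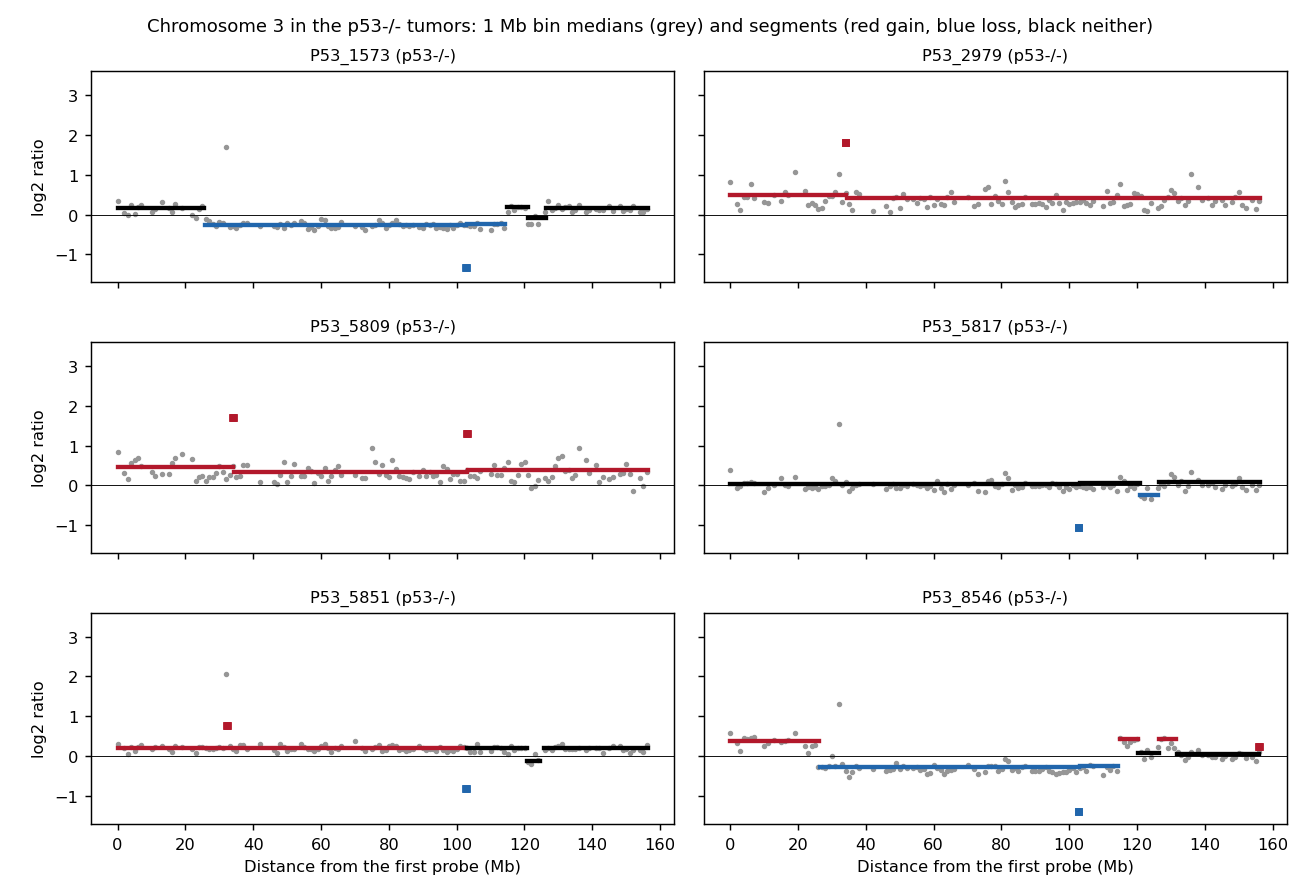
Log2 ratio (y axis) along chromosome 3 (x axis, distance from the first probe in Mb) in the 6 p53-/- tumors; grey points are medians of 1 Mb bins, and lines or squares are segment means, red for gain, blue for loss and black for neither. P53_1573 and P53_8546 show a low middle between higher ends, P53_2979 and P53_5809 are raised from end to end, and 4 tumors share a short loss of 5 probes, drawn as a blue square.

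The chromosome was also cut into windows at the steps of P53_8546, so that the values of that tumor, and of P53_1573 with its nearby steps, restate their segments. Over the first window (204 probes) the mean log2 ratio was 0.159 in P53_1573, 0.512 in P53_2979, 0.511 in P53_5809, 0.056 in P53_5817, 0.214 in P53_5851 and 0.382 in P53_8546. All 6 were above 0, and the other tumors ranged from -0.155 to 0.569 with a median of 0.054. Over the middle window (1408 probes) the same tumors measured -0.245, 0.426, 0.378, 0.041, 0.207 and -0.271, and the others ranged from -0.161 to 0.586 with a median of 0.030. The second distal window, from 123672988 to 129805400 (62 probes), had a median over its probes of -0.031 in P53_1573, -0.175 in P53_5817, 0.057 in P53_5851, 0.096 in P53_8546, 0.097 in P53_5809 and 0.223 in P53_2979. In 6 of 6 tumors this was below the medians of both neighboring distal windows, and so it was in 24 of 39 tumors of other models. The mean over this window was -0.3815 in P53_1573, -0.5488 in P53_5817, -0.393 in P53_5851 and -0.2337 in P53_8546. It was 0.2202 in P53_5809, 0.3116 in P53_2979 and -0.2326 to 0.5434 in the others. Mean and median thus differed in sign in P53_5851 and P53_8546. The window holds the AK173191 probe described below, which was far below 0 in those 4 tumors.

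P53_2979 and P53_5809 carried a gain of the entire chromosome. P53_2979 measured 0.479 up to position 37534470 and 0.410 from 37827298 to the end, and P53_5809 measured 0.450 over the first stretch and 0.337 to 0.387 beyond it. Between these stretches, 6 probes from 37541234 to 37711328 had a mean of 1.78 in P53_2979 and 1.68 in P53_5809. The same probes measured 0.019 in P53_1573, 0.639 in P53_5817, 0.026 in P53_5851 and 0.418 in P53_8546, and -0.518 to 0.804 in the other models. The stretch runs from A930011G24 to Spata5, an ATPase gene, and its highest probe lay in Nudt6, a nudix hydrolase transcribed opposite the growth factor gene Fgf2. In P53_5809, 9 probes from 106648107 to 106950516 averaged 1.28, and in P53_2979 the same probes averaged 1.04. That stretch began in Cept1, a phospholipid synthesis gene, and its highest probe was in Cd53, a tetraspanin of white blood cells. The chromosome 3 profiles of both tumors correlated at r = 0.795 over 128 bins, and the part of their shared high noise in these values was not tested.

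P53_5817 and P53_5851 showed few long changes. P53_5817 measured 0.037 up to position 106242550, and 55 probes from 124411268 to 129747651 were lost at -0.237, with the first step inside AK132965 and the second between AK031828 and Rrh. P53_5851 stood at 0.220 over the first 31.5 Mb and at 0.208 from 36121969 to 106242550, just above the limit of 0.2 for a gain, and at 0.1998 and 0.198 over its distal segments, just below that limit. Its gained share was 65.0% in this segmentation and 59.1% with every probe as measured. Over 44 probes from 124315237, in Tram1l1, to 127943042, in AK036551, it measured -0.120.

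A short loss was shared by 4 of the p53-/- tumors. The 5 probes from 106258630 to 106389918, a stretch of 131 kb, averaged -1.35 in P53_1573, -1.39 in P53_8546, -1.07 in P53_5817 and -0.811 in P53_5851. They averaged 0.218 in P53_2979 and 0.241 in P53_5809, and -0.186 to 0.643 in the 39 tumors of other models, with 0 of 39 at -0.2 or below. The 4 low tumors lay outside the range of all others, and the segment had the same first and last probe in each. The stretch was chosen from the segments of these tumors, so their low values were not tested. Its named probes belonged to Chia, an acidic chitinase, Chi3l3, a chitinase-like protein of activated macrophages, and Chi3l4, another chitinase-like gene with 2 of the 5 probes. Chi3l3 and Chi3l4 are closely related copies, so their probes may report more than 1 gene. No array of normal DNA from the same mice was analysed here.

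Single probes were far from their neighbors in those same 4 tumors. Of all chromosome 3 probes, AK206798, E130311K13Rik and Palmd, a palmdelphin gene, had the highest means over the p53-/- tumors. Palmd measured 4.62 in P53_1573, 6.78 in P53_5817, 5.99 in P53_5851 and 4.35 in P53_8546, against -1.64 in P53_2979 and 0.273 in P53_5809. The other models ranged from -1.80 to 1.21 at this probe. AK206798 measured 5.45 to 6.50 in the 4 tumors, -1.58 and -0.889 in P53_2979 and P53_5809, and up to 5.20 elsewhere. That highest value was in BRCA1-/-;p53+/-, where 2 of 5 tumors were beyond 2, as was no tumor of the remaining models. E130311K13Rik measured 4.46 to 5.86, against 0.117 and 0.172 in that pair and -2.48 to 3.04 in the other models. It was beyond 2 in 4 of 5 BRCA1-/-;p53+/- tumors, with a median of 2.59 in that model. The lowest probe, at 101029670 to 101029729 and without a gene name, measured -6.78 to -5.69 in the 4 tumors and -0.556 to 0.673 in every other tumor of the series. AK173191 measured -5.71 to -5.07 in the 4 tumors and -0.612 to 0.547 in the rest. The remaining unnamed probe, at 86261059 to 86261118, measured -4.87 to -3.56 in the 4 tumors, while 1 BRCA1-/-;p53+/- tumor reached -3.55 and no other tumor outside the group was beyond 2. These 6 probes were chosen for their values and were not tested. In all, 15 probes were beyond 2 in log2 ratio with the same sign in each of the 4 tumors. Of these, 2 were beyond 2 in P53_2979, 1 was in P53_5809, and 8 were beyond 2 in no tumor of another model. Such probes were not counted on the other autosomes, so whether chromosome 3 differs from them in this was not tested. The 4 tumors were set apart after seeing the data.

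**Figure D4:**
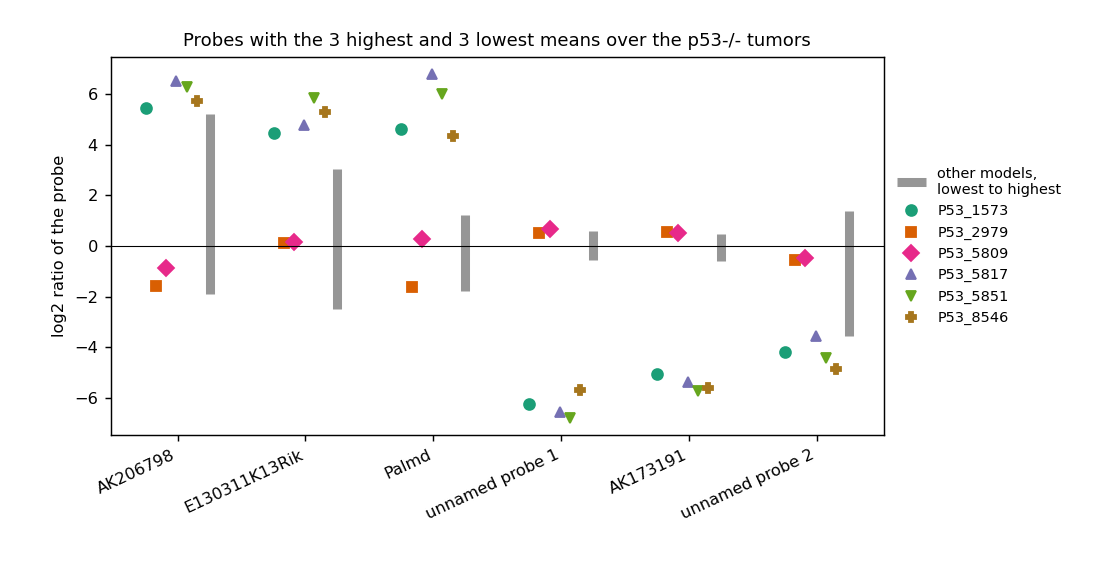
Log2 ratio (y axis) of the 3 probes with the highest and the 3 with the lowest mean over the p53-/- tumors (x axis); each symbol is 1 p53-/- tumor and the grey bar spans the 39 tumors of other models. P53_1573, P53_5817, P53_5851 and P53_8546 lie together and far from 0, whereas P53_2979 and P53_5809 lie between -1.64 and 0.673.

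Chromosome 3 was cut into more segments in the p53-/- tumors than in the other models. Breakpoints were not counted on the other autosomes, so whether this is particular to chromosome 3 was not tested. P53_1573 had 36 breakpoints, P53_5817 had 32, P53_5851 had 41 and P53_8546 had 38, against 6 in P53_2979 and 2 in P53_5809. The other tumors ranged from 0 to 30. The means were 25.8 ± 17.2 (SD, n = 6) and 5.46 ± 6.38 (SD, n = 39), a difference of 20.4 breakpoints (two-sided exact permutation test, p = 0.000168). Within the scan session the difference was 19.0 (exact permutation p = 0.00324). It was 5.35 with the normexp background correction (exact permutation p = 0.0016) and 31.3 without P53_2979 and P53_5809 (exact permutation p = 8e-06). Many of these breakpoints bounded short segments. Of 161 segments in the p53-/- tumors, 74 were gained or lost with 10 probes or fewer, and 24 of these 74 fell below the limit when their farthest probe was left out. The numbers for the other models were 252 segments, 88 short ones and 43 below the limit. With isolated probes set to the median of 5 neighbors, the p53-/- tumors had 2 to 8 breakpoints and the others 0 to 6, with means of 5.0 ± 2.10 (SD, n = 6) and 1.38 ± 1.84 (SD, n = 39), a difference of 3.62 (exact permutation p = 0.000489). The number of isolated probes on the chromosome was 57 to 74 in the 4 tumors with the extreme probes and 16 and 19 in the other pair, and the part of these probes in the count was not tested beyond this.

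No difference between the proximal and the distal probes, split at the middle probe, was detected within the p53-/- tumors. Distal minus proximal was 0.006 ± 0.063 (SD, n = 6; two-sided exact sign-flip permutation test, p = 0.875). When the split was made at the middle position instead, the difference was -0.064, with the distal part lower in 6 of 6 tumors (exact permutation p = 0.0312, the smallest these 6 tumors allow).

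Outside the p53-/- group, 6 tumors had a gained chromosome 3, and none had the low middle of P53_1573 and P53_8546. C3TAg_8_RPT (mean 0.580) was gained over 99.8% of its probes, and Myc_04004021 (0.352) and Wnt_4635 (0.318) over 100%. Brca_54 was gained over 83.0%, at 0.289 up to position 88654677 and at 0.303 from 97144364. Between them 319 probes, from Ssr2 to M30250, stood at -0.118. In Wnt_4635, an array in doubt, 7 probes from 26524049 to 27270695 had a mean of 3.13, the highest of any segment after isolated probes were set aside, followed by 5 probes from Ect2, a regulator of cytokinesis, at 0.521 and by 11 probes up to Pld1, a phospholipase D gene, at 0.818. The p53-/- tumors measured -0.009 to 0.346 over the 7 probes. H2NA was gained over 16.5% of its probes, and over 1.11% once isolated probes were set to the median of 5 neighbors. It also had a loss of 46 probes from 121482224, in Slc44a3, to 123018166, in Myoz2, at -0.989, where the p53-/- tumors measured 0.048 to 0.49. H2N61, an array in doubt, passed with 25.1% of its probes in a segment whose mean was 0.203, and its gained share was 0.83% after the same smoothing.

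**Figure D5:**
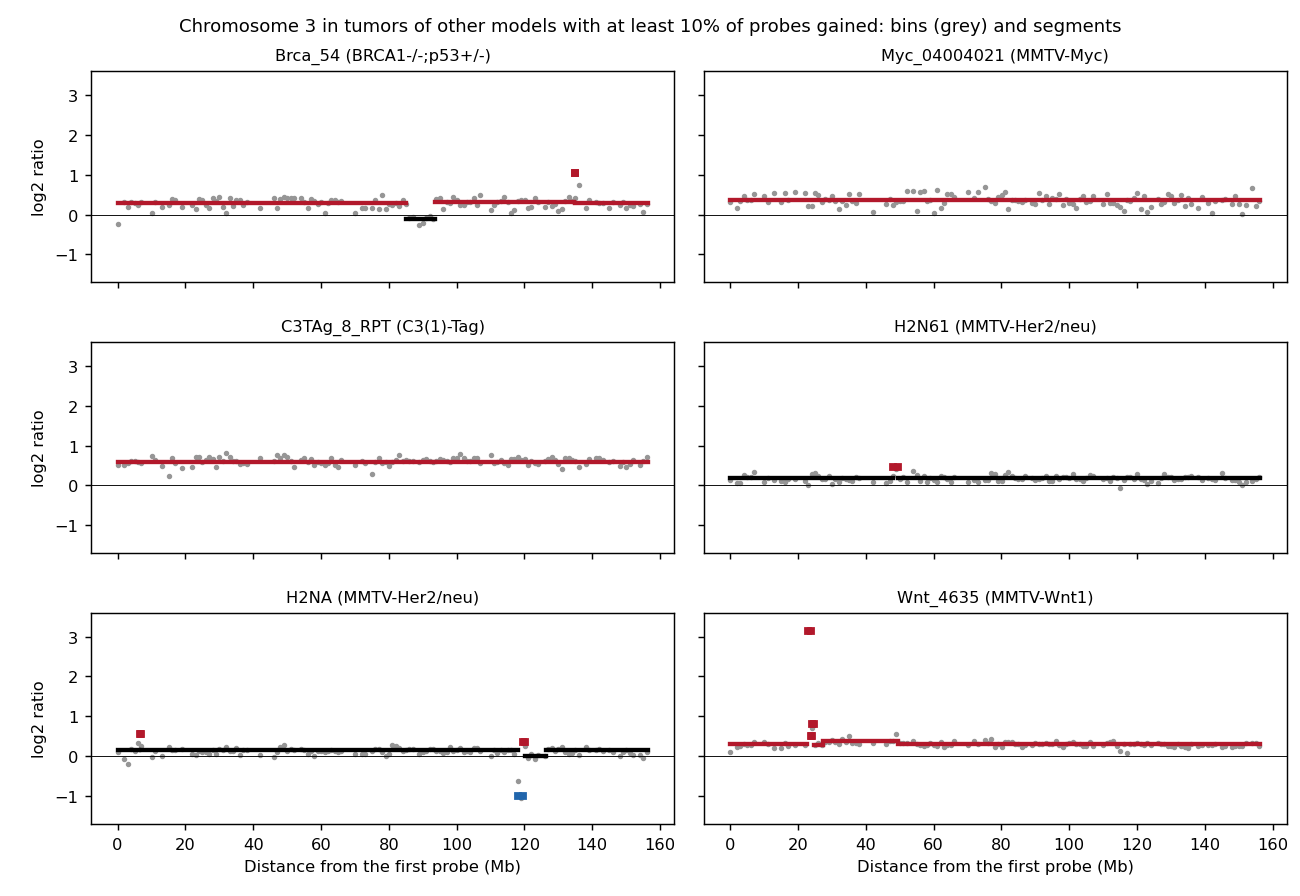
Log2 ratio (y axis) along chromosome 3 (x axis, distance from the first probe in Mb) in the 6 tumors of other models with at least 10% of probes gained; grey points are medians of 1 Mb bins and lines or squares are segment means (red gain, blue loss, black neither). C3TAg_8_RPT, Myc_04004021 and Wnt_4635 are raised from end to end, and Brca_54 has an unraised gap of 319 probes.

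Bin by bin, the p53-/- tumors were higher over parts of both ends of the chromosome. Of 128 bins of 1 Mb on chromosome 3, 14 were higher than in the other tumors and 0 were lower in limma with Benjamini-Hochberg adjustment over all 2057 bins, where 2.28% of the bins were called higher and 4.81% lower. At an unadjusted p under 0.05 the counts were 23 and 2. The largest difference, in the bin starting at 35000001, was 1.14 ± 0.178 (SE; limma, adjusted p = 4.23e-05), with 3 probes behind it. One of these is the unnamed probe at 35858931, which reached 4.11 in P53_5851 and 2.23 in Brcap53_503. The 5 probes from there to Dcun1d1, a gene of cullin neddylation, averaged 0.531 to 1.67 in the p53-/- tumors and -0.386 to 1.01 in the others, of which 12 of 39 were at 0.2 or above. Of the 14 bins, 8 started at or below position 35000001 and 6 at or above 118000001, and none lay between. With the scan session as a fixed block 1 of the 14 bins remained, within the session 4, and without both P53_2979 and P53_5809 2 bins were higher and 8 lower. Leaving out P53_2979 alone left 7 bins higher, and leaving out P53_5809 alone left 5.

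Of the 1069 gene names on the chromosome, 140 were higher and 40 lower in the p53-/- tumors (limma, Benjamini-Hochberg adjustment over 20192 autosomal genes), where 9.0% of all genes were called higher and 7.67% lower. The median difference was 0.036 over the chromosome 3 genes and 0.002 over all genes. Without P53_2979 alone the counts were 58 and 34, without P53_5809 alone 52 and 26, without both 21 and 49, and with the scan session as a fixed block 12 and 3.

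Genes with known roles were followed as 10 lists, of which 87 of 98 members had a chromosome 3 probe. Of these, 10 were higher and 4 lower, and their median difference of 0.033 lay beside 0.036 for all chromosome 3 genes. Over all 1069 chromosome 3 genes 140 were higher and 40 lower, and over all autosomal genes 9.0% were higher and 7.67% lower. No list was tested against these shares. Among 7 cell cycle genes none passed; E2f5, a transcription factor of the E2F family, averaged 0.196 ± 0.223 (SD, n = 6) and Fbxw7, a ubiquitin ligase subunit that marks cyclin E and Myc for degradation, 0.342 ± 0.306 (SD, n = 6). Ccnl1, a cyclin of RNA processing, averaged -0.125.

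Of 8 apoptosis and survival genes, 2 were higher and 0 lower. Bcas2, a component of the spliceosome, measured 2.76 in P53_2979, 2.57 in P53_5809, 1.41 in P53_5817, 1.02 in P53_8546, 0.611 in P53_5851 and 0.230 in P53_1573, and -1.25 to 2.01 in the others. Its difference of 1.43 ± 0.283 (SE; limma, adjusted p = 0.000538) rested on 2 probes, and the ranges overlapped. Bcl10, an adaptor of NF-kappaB signaling, averaged 0.028, and Tnfsf10, the death ligand TRAIL, -0.099; neither passed.

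Of 11 growth factor and receptor genes, 1 was higher and 1 lower. Il7, a lymphocyte growth factor, was higher by 0.48 (limma, adjusted p = 0.00602), with 1.17 and 1.40 in P53_2979 and P53_5809 and 0.051 to 0.479 in the others of the group. Vtcn1, an inhibitory ligand of T cells, was lower, by -0.70 (limma, adjusted p = 1.02e-05). It measured -1.01 in P53_1573, -0.853 in P53_8546, -0.557 in P53_5817, -0.467 in P53_5851, -0.198 in P53_2979 and -0.107 in P53_5809. The first 4 lay below the lowest of the other 39 tumors, at -0.436. Its 2 probes end close to the unnamed probe at 101029670 that was lowest in the same 4 tumors. Ghsr, the ghrelin receptor, averaged 0.059 and did not pass.

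Of 11 signal adaptor and kinase genes, 2 were higher. Pkn2, a protein kinase of the N family, was higher by 1.31 (limma, adjusted p = 0.00234), with 2.18 to 2.91 in the 4 tumors with extreme probes and -0.095 and -0.231 in P53_2979 and P53_5809. The other models ranged from -1.12 to 3.55, so the groups overlapped, and the higher of its 2 probes was also extreme in 4 of 5 BRCA1-/-;p53+/- tumors, at 5.77 in Brca_14, 5.81 in Brca_42, 5.04 in Brca_54 and 2.71 in Brcap53_682. Shc1, an adaptor of receptor tyrosine kinases, averaged -0.186 and Rap1a, a small GTPase, 0.115; neither passed. Of 10 genes of the Wnt, Notch, Hippo and TGF-beta pathways, 2 were higher and 1 lower. Notch2, a Notch receptor, measured 0.657 to 1.66 in the p53-/- tumors and was higher by 1.02 (limma, adjusted p = 0.00798), although a tumor of another model reached 1.82. Bcl9, a coactivator of beta-catenin, was lower, by -0.34 (limma, adjusted p = 0.0125), and Skil, a repressor of TGF-beta signaling, averaged -0.023 and did not pass.

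Of 9 transcription and chromatin genes 1 was higher, Hltf, a helicase-like factor of DNA damage tolerance, by 0.46 (limma, adjusted p = 0.0349). Pias3 and Lmo4 averaged 0.198 and -0.163. Of 8 epithelial and mammary genes 1 was higher and 1 lower. Tpd52, a gene often gained in breast tumors, was higher by 0.38 (limma, adjusted p = 0.00497), with 0.769 and 0.848 in P53_2979 and P53_5809, 0.488 in P53_8546 and 0.043 to 0.154 in the remaining 3. Rab25, a trafficking GTPase of epithelia, differed by -0.34, with 1 probe just inside the threshold (limma, adjusted p = 0.0499), and Pdzk1, a scaffold protein, averaged 0.068 over the p53-/- tumors and did not pass.

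Of 13 S100 genes, which encode small calcium-binding proteins, 1 was lower and none higher. S100a7a was lower, by -0.66 (limma, adjusted p = 0.013), with -0.728 to -1.92 in the 4 tumors with extreme probes and 0.327 and 0.537 in P53_5809 and P53_2979. It had 1 probe, and a tumor of another model reached -2.47. S100a13 and S100a14 averaged 0.059 and 0.304. None of 7 glutathione S-transferase mu genes passed, with Gstm4 at -0.241, Gstm2 at 0.035 and Gstm7 at 0.24. Of 3 guanylate-binding proteins, which act in defense against intracellular microbes, Gbp2 was higher by 0.32 (limma, adjusted p = 0.00657), and Gbp1 and Gbp5 averaged 0.168 and -0.006. Copies of the S100, transferase and guanylate-binding genes resemble each other, so their probes may not separate them.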

How the data were processed

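DNA of 45 mammary tumors and pooled normal DNA were labelled with Cy3 and Cy5 and hybridized to Agilent mouse arrays, 1 array per tumor. The authors deposited scanner output whose headers name Feature Extraction 9.5.1.1, while the submitters' processing notes name version 10.7. The deposited log10 ratio of each spot, dye-normalized by that software, and the processed intensity of each channel were read on build mm8. For background subtraction the headers gave code 5 on 6 arrays and code 7 on 39. The authors also deposited interval tables with mean log2 ratios, used to settle the direction and as an alternative; their column of log-transformed p-values was not used.

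From these values the sign-reversed ratio was converted to log2, spots flagged as outliers were left out, replicate spots of a probe were averaged, and each array was centred on its autosomal median. On chromosome 3, 96.2% to 100% of spots were well above background, and noise per array was 0.158 to 0.475, so that the number of arrays limits precision. 3 probes on the chromosome are not reported here. Segments were split recursively at a statistic above 6 with at least 5 probes each, and bins of 1 Mb needed at least 3 probes. An isolated probe was one more than 4 noise SDs from the median of the 5 probes centred on it; this smoothing, the removal of P53_2979 and P53_5809, and the settings of the scan session were chosen after seeing the data. A scan session is a group of arrays with one scan date in the headers, with successive dates joined where scanning ran past midnight. Bins and genes were tested with limma 3.58.1 in R 4.3.3 (lmFit, eBayes, Benjamini-Hochberg adjustment, called under 0.05), single values with exact permutation tests and counts with Fisher's exact test in scipy 1.17.1. The segmentation and the limma step were tested on simulated data.

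Of 1069 gene names, 598 were current RefSeq symbols and 145 synonyms in the table of build GRCm38, which was used for names alone; the array's names are kept. The members, the gene lists and the windows were chosen with earlier results of these data known. Named genes were the highest, the middle and the lowest of each list by their mean over the p53-/- tumors, genes beside the breakpoints described, and the farthest probes. Alternatives were other centrings and background corrections, loess, spot filters, both dye directions, segment settings, slide and scan blocks, and leaving out each tumor.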

Additional observations from a re-analysis of the deposited data

Results flagged for a closer look

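Within models, 32 groups of 4 to 10 tumors were examined for a single tumor far from the rest in relation to the range of its group, and 7 values stood out. In mean log2 ratio of chromosome 3 these were Myc_04004021 at 0.352, C3TAg_8_RPT at 0.580 and Wnt_4635 at 0.318. In the share of chromosome 3 probes gained they were Brca_54 at 83.0%, Myc_04004021 at 100%, C3TAg_8_RPT at 99.8% and Wnt_4635 at 100%. Myc_04004021 had a noise of 0.444, the highest of its model, and Wnt_4635 is among the arrays in doubt; the part of either in these values was not tested.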

How the results depend on the processing

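Of 103 alternative settings across the results, apart from those that leave out 1 tumor, 74 kept the direction and the side of the threshold or stayed within 1.5 times a count, 23 moved a value, 2 lost a call and 4 reversed a direction; the cause was not tested unless the setting itself gives it. With the dyes as labelled, by construction, the difference in mean was -0.0737 and that between distal and proximal probes -0.0056, with 2 p53-/- and 0 other tumors gained, 11 tumors lost, a gained share 22.1 points higher, 0 bins and 40 genes higher. Split at the middle position, distal and proximal parts differed by -0.0643. Without P53_2979 and P53_5809 the difference in mean was -0.0658, the difference in gained share 11.4 points, and 3 p53-/- tumors, 2 bins and 21 genes were gained or higher. With a segment mean of at least 0.3, 3 p53-/- and 3 other tumors were gained and 1 was lost; with at least 50% of the probes, 3 p53-/- tumors were gained. Normexp left 3 other tumors gained and a difference of 5.35 breakpoints, and centring on the density peak left 1 tumor lost and 8 bins higher. The authors' intervals gave 0 lost tumors and a difference in gained share of 24.8 points (exact permutation p = 0.249). The scan session as a fixed block left 1 bin and 12 genes, the session alone 4 bins and 58 genes, the slide as a random block 92 genes, and bins of 2 Mb 7 bins. Without the 5 arrays in doubt, 0 models differed from the rest.

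Leaving out 1 tumor in turn, the difference in mean ranged from 0.0134 to 0.125, that in gained share from 26.9 to 46.6 points, that in breakpoints from 17.3 to 25.1 and that between distal and proximal probes from -0.0123 to 0.018. The counts ranged from 4 to 5 gained p53-/- tumors, 5 to 6 gained others, 5 to 17 bins and 52 to 191 genes. No paired analysis was possible because the replicate numbers were given in accession order and pair no tumors.

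The p53-/- group had 6 tumors with 1 array each, which limits the precision of every difference.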

Other observations

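In the deposited interval table, the p53-/- tumors had 134 intervals on chromosome 3, of which 103 held 1 probe and 6 held 100 probes or more. The tumors of other models had 155, of which 129 held 1 probe and 9 held 100 or more.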
